A study of Rattus norvegicus with 30 samples.

Results

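The messages of the cytosolic ribosomal proteins, the protein parts of the ribosome that works outside the mitochondria, were followed in rat left ventricle across 6 preconditioning protocols on Affymetrix arrays. A probe set (a group of short oligonucleotides read as 1 value) was a member if its only annotated gene symbol began with Rpl or Rps followed by a digit, leaving out the Rps6k kinases and names that end in ps or ps plus digits, or was Rplp0, Rplp1, Rplp2 or Rpsa. The rule gave 60 of 8799 probe sets, for 41 of the 4736 genes that had a probe set with a single symbol: 41 probe sets of 28 large-subunit genes, 18 of 12 small-subunit genes, and 1 for Rplp0 of the P stalk. Read by the letter, the last exclusion also takes out genes such as Rps16, whose plain name ends in that way, and leaves 46 probe sets of 32 genes. It was therefore applied only to the letters after the leading Rpl or Rps. Rplp1 and Rplp2 had no probe set with a single symbol. A further 39 probe sets carried a ribosomal protein symbol beside other symbols and were no members.

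Each of the 6 groups held 5 arrays, which the labels call biological replicates. CTL hearts were controls, ISCH hearts underwent ischaemia, IPC hearts ischaemic preconditioning and APC hearts anaesthetic preconditioning. IPC_TRI and APC_TRI hearts received the trigger of each kind of preconditioning. The labels give total RNA of the left ventricle for all 30 arrays and name no anaesthetic, dose, duration, strain, sex or age, so no further feature of a group can be stated here. Preconditioning is a brief stimulus given before a longer ischaemia that limits the damage of that ischaemia. All groups are bulk tissue, in which fewer cells of a type and less RNA per cell cannot be told apart.

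The small subunit of the ribosome reads the messenger RNA and the large subunit joins amino acids, with the P stalk of the large subunit recruiting the elongation factors. Ribosomal protein messages are abundant, and many begin with a terminal oligopyrimidine (TOP) tract, a C followed by a run of C and T at the first base of the message, through which mTOR signalling sets how much of them is translated. In heart muscle, ribosome content is known to rise with growth of the cells, and mTOR signalling is known to respond to ischaemia.

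The start sites of 7 members on which the results turn are shown because the TOP tract is the feature that the family is best known to share. Each line gives 10 bases before and 20 from the annotated start of transcription in RefSeq's promoter table (build GRCr8), 5′ to 3′ on the gene's strand, with a run of C and T that begins with C at that start in capitals.
Rpl39, chrX:121195877-121195906, minus strand: taatcgcgttCTTCCggcctgtcctttctc
Rpl35a, chr11:81235002-81235031, minus strand: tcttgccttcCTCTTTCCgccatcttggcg
Rplp0, chr12:46718371-46718400, minus strand: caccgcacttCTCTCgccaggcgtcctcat
Rps16, chr1:92770648-92770677, plus strand: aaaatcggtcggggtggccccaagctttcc
Rps24, chr16:96507-96536, plus strand: ggtcctcttttcctcctttacagctcgggc
Rpl21, chr12:13386134-13386163, minus strand: ttccgccggggcagccatcttccaggttgg
Rps6, chr5:106420521-106420550, minus strand: ctcctaggcggtcggctgtgtcaagatgaa
The tract, here a C at the annotated start and at least 5 bases of C or T in all on the strand of the gene, was present in Rpl39, Rpl35a and Rplp0 and not at this position in Rps16, Rps24, Rpl21 or Rps6. Of the 41 member genes, 37 had an entry, and 11 of these (29.7%) had the tract at the annotated start, against 881 of all 33469 promoters (2.63%). Within 20 bases on either side of the start, 30 of the 37 member genes (81.1%) held such a run, against 43.9% of all promoters. The other genes with the tract at the start were Rpl14, Rpl17, Rpl19, Rpl22, Rpl31, Rpl35, Rps3a and Rps15. A match describes the annotated letters, and a start annotated a few bases away would hide a tract.

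The deposited values of the 30 arrays had nearly equal trimmed means and medians of 114.6 to 189.2, so they had already been scaled. All 60 members passed the filter on low values, which ranked probe sets by mean signal, dropped the lowest 40% and left 5244 for testing. Values below are quantile-normalized log2(value + 16), and every change is a difference of group means on that scale with its SE, tested with limma over all 5244 probe sets and called at a Benjamini-Hochberg adjusted p under 0.05. Differences on this scale understate the change of low signals. Calls were recomputed with another pseudocount, without the filter, on the deposited scale, with each array centred on its median, with replicate number as a block, in a fit to the compared groups only, with array weights, and with the bacterial spike signal or the beta-actin 3′ minus 5′ difference as a covariate. The spike signal and the beta-actin difference themselves differed between some of the groups. A call that ended with either as a covariate therefore cannot tell a smaller change from a wider SE. The number of arrays, 5 a group, limits the precision.

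Most ribosomal protein messages lay above control in ischaemic hearts, while few passed the test. In ISCH minus CTL, 6 of 60 probe sets rose and 0 fell, and 46 of 60 changes lay above 0, against 48.8% of all probe sets. The median change was 0.28 for the members, 0.29 for the large-subunit and 0.25 for the small-subunit probe sets, beside -0.01 over all probe sets tested. The 6 calls are 10% of members, beside 8.77% of all probe sets called in this comparison, 3.95% higher and 4.82% lower, so the share called in either direction was near the background, and all 6 lay on the higher side. Members that rose were Rps16 and Rps23 of the small subunit and Rpl17, Rpl19l4, Rpl21 and Rpl39 of the large subunit. The members' median was 0.25 as deposited, beside 0.02, and 0.15 with each array centred on its median, beside -0.07, so that it lay 0.23 above that of all probe sets under either scaling, but the calls did not all stay: 4 rose and 0 fell as deposited, and 0 rose and 1 fell with median centring. Of all probe sets, 4.5% rose and 4.98% fell as deposited, and 3.09% rose and 5.49% fell with median centring. The count of calls among members was 1 without ISCH 3, 2 without ISCH 5, and 3 without CTL 1, CTL 3 or CTL 5. For these fits the share of all probe sets called is not given here. The 1 that fell with median centring was a probe set of Rpl3l (rc_AA891037_at), at -0.47 ± 0.15 (SE, adjusted p = 0.0483).

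**Figure D1:**
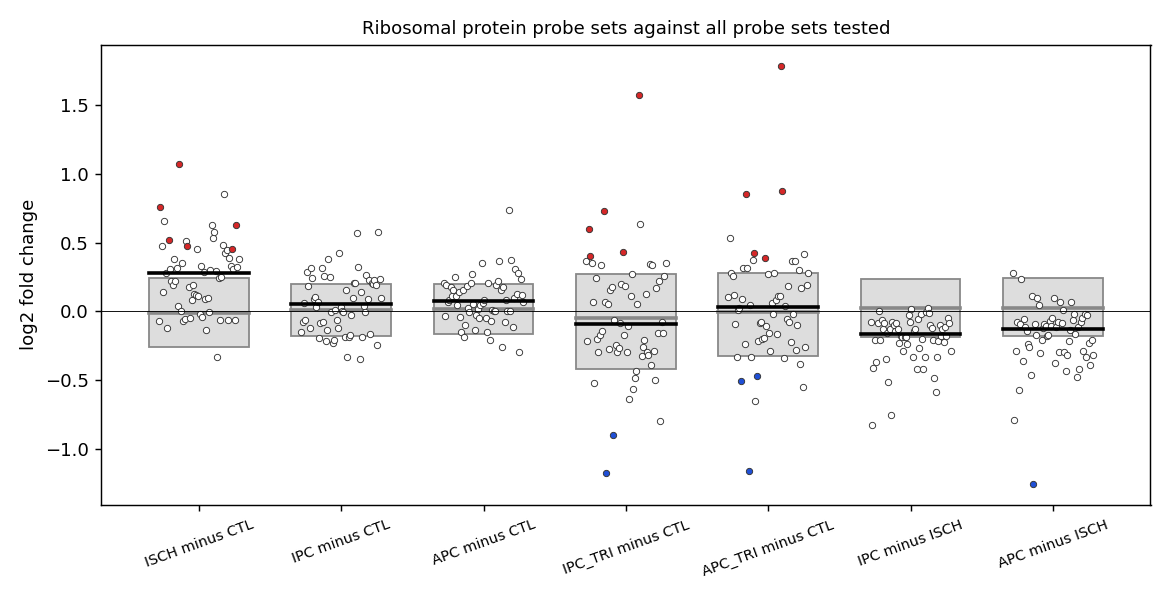
Log2 fold change (vertical axis) of each of the 60 ribosomal protein probe sets in 7 comparisons (horizontal axis). Red points rose, blue points fell and open points did not pass the test; the black bar is the members' median, and the grey box and bar give the quartiles and median of all 5244 probe sets. In ISCH minus CTL the members' median of 0.28 lies above the upper quartile of all probe sets.

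Rps16, a small-subunit protein whose tail reaches toward the transfer RNAs, gave the smallest p among the members. Its log2 signals were 12.25, 12.20, 11.93, 12.28 and 12.17 in CTL and 12.40, 12.70, 12.85, 12.63 and 12.62 in ISCH. Each ischaemic heart lay above each control. The change was 0.48 ± 0.11 (SE), adjusted p = 0.00345, or 1.39-fold. It stayed called when any 1 of the 10 arrays was left out and ended with median centring (0.40, adjusted p = 0.142).

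Rps23 sits at the decoding centre of the small subunit. It read 11.58, 11.98, 11.36, 11.89 and 11.86 in CTL and 12.29, 12.18, 12.44, 11.80 and 12.25 in ISCH. The ranges overlapped through ISCH 4, which lay below the highest controls, and the change was 0.46 ± 0.14 (SE), adjusted p = 0.0422. The call ended without CTL 1, CTL 3, ISCH 1, ISCH 2, ISCH 3 or ISCH 5 (adjusted p 0.0618 to 0.144), each left out alone, and with no filter, the deposited scale, median centring, a fit to the groups compared alone, IPC_TRI 5 and ISCH 1 both left out, the spike covariate and the beta-actin covariate (changes of 0.35 to 0.46, adjusted p 0.0611 to 0.383).

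Among large-subunit genes the largest rise that passed was that of Rpl19l4, a gene named for its likeness to Rpl19. Its probe set, X07686cds_s_at, read 9.82, 9.97, 9.81, 10.14 and 9.25 in CTL and 9.55, 10.79, 11.39, 11.12 and 11.49 in ISCH. ISCH 1 lay within the control range and the other 4 ischaemic hearts above it. The change was 1.07 ± 0.28 (SE), adjusted p = 0.0127, or 2.10-fold, and the call ended without ISCH 3 or ISCH 5 (adjusted p 0.0507 to 0.0519) and with median centring (0.91, adjusted p = 0.0532). Because a near copy of Rpl19 can share sequence with its parent, which of the copies this probe set reads is uncertain. The probe set of Rpl19 itself, rc_AA800054_at, passed in no comparison, and its highest change against CTL was 0.08, in APC_TRI.

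Rpl21, a large-subunit protein, had 4 probe sets, of which M27905_at rose. It read 11.07, 10.96, 10.98, 10.94 and 10.90 in CTL and 11.54, 11.46, 11.66, 11.16 and 11.63 in ISCH, with each ischaemic heart above each control. The change was 0.52 ± 0.15 (SE), adjusted p = 0.0246, and the call ended without CTL 5, ISCH 3 or ISCH 5 (adjusted p 0.0554 to 0.075) and with median centring, the spike covariate and the beta-actin covariate (changes of 0.37 to 0.48, adjusted p 0.0591 to 0.303). The other 3 probe sets of Rpl21 lay above control by 0.63 ± 0.27, 0.53 ± 0.26 and 0.51 ± 0.30 and did not pass.

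Rpl39 lines the tunnel through which the growing protein leaves the ribosome. It read 11.21, 11.83, 10.92, 11.72 and 11.41 in CTL and 11.36, 12.29, 12.19, 12.04 and 12.35 in ISCH. ISCH 1 lay inside the control range and the other 4 above it. The change was 0.63 ± 0.20 (SE), adjusted p = 0.0404, and the call ended without any of 7 of the 10 arrays, all but CTL 2, CTL 4 and ISCH 1 (adjusted p 0.0612 to 0.137), and with no filter, median centring, a fit to the groups compared alone, the spike covariate and the beta-actin covariate (changes of 0.53 to 0.82, adjusted p 0.061 to 0.181).

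Rpl17, which also borders the exit tunnel, read 8.62, 8.97, 9.03, 9.01 and 9.10 in CTL and 9.45, 10.18, 10.35, 9.50 and 9.03 in ISCH. ISCH 5 lay within the control range. The change was 0.76 ± 0.24 (SE), adjusted p = 0.0478, just inside the threshold, and the call ended without any of 8 of the 10 arrays, all but ISCH 1 and ISCH 5 (adjusted p 0.051 to 0.18), and with pseudocount 1, no filter, the deposited scale, median centring, replicate block, a fit to the groups compared alone, the spike covariate and the beta-actin covariate (changes of 0.43 to 0.77, adjusted p 0.0511 to 0.588). Just outside the threshold were Rpl3 (rc_AA892367_i_at, 0.48 ± 0.17, adjusted p = 0.0631), a protein close to the site of peptide bond formation, and Rpsa (D25224_at, 0.48 ± 0.17, adjusted p = 0.0769), which is also known as a receptor for laminin. The furthest members above control without a call were Rps15 (rc_AA892895_i_at), at 0.85 ± 0.45, and Rpl30, at 0.66 ± 0.39. Rpl30 read 5.26 in CTL 3, against 7.61 to 8.13 in the other controls and 7.55 to 8.33 in ISCH, so its change leans on that 1 low control.

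Other measures moved with this comparison. The mean of the 60 members, as a difference from the CTL mean, ran from 0.08 to 0.44 in ISCH and from -0.13 to 0.07 in CTL, with each ischaemic heart above each control. Of 9 fibroblast markers, 5 rose in ISCH, and their summed log2 signal ran from 15.97 to 16.49, against 15.60 to 15.83 in CTL. Of 9 cardiomyocyte markers, 2 fell, and their summed log2 signal ran from 17.81 to 17.97 in ISCH and from 17.95 to 18.15 in CTL. Their part in the members' change was not tested. The bacterial spike controls read 12.02 ± 0.61 in ISCH and 10.75 ± 0.69 in CTL (SD, n = 5 each), and with their signal as a covariate 2 members passed. The difference between the 3′ and 5′ probe sets of beta-actin, which moves with RNA length among other things, was 0.32 ± 0.06 in ISCH and 0.08 ± 0.25 in CTL, and with it as a covariate 2 members passed. The same difference for Gapdh ran from -0.22 to 0.22 in ISCH and from -0.24 to 0.01 in CTL. The share of all probe sets called with the spike or the beta-actin covariate is not given here. All 9 cardiomyocyte markers on the array were among the probe sets tested.

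**Figure D2:**
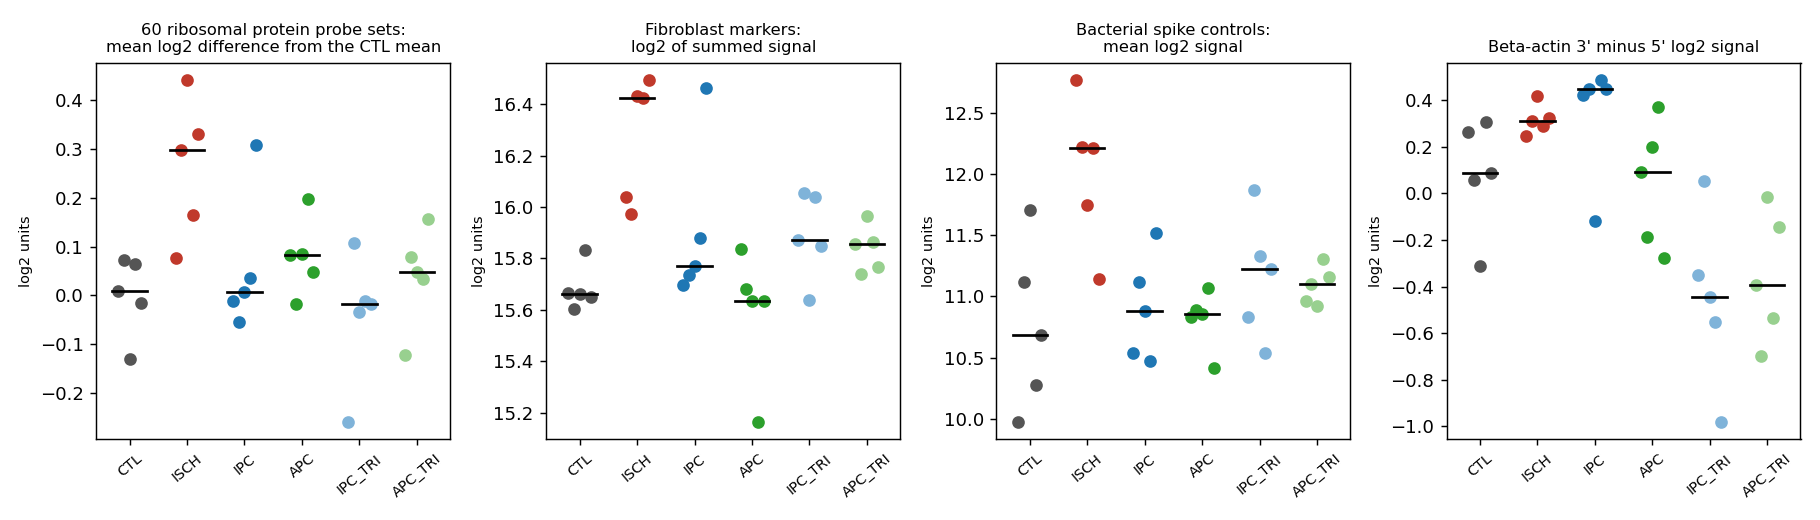
Per-array values in log2 units (vertical axes) for the 6 groups (horizontal axes): the mean difference of the 60 ribosomal protein probe sets from the CTL mean, the log2 summed signal of 9 fibroblast markers, the mean log2 signal of the bacterial spike controls and the 3′ minus 5′ log2 signal of beta-actin. Points are arrays and bars are medians; the ISCH median of 0.30 is the highest of the 6 group medians for the members' mean, and both trigger groups have the lowest beta-actin medians.

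No member passed in the full protocols against control. IPC minus CTL and APC minus CTL called 0 of 60 members each in limma, beside 3.89% of all probe sets (1.87% higher and 2.02% lower) and 3.66% (1.37% higher and 2.29% lower), and 6 and 2 members had an unadjusted p under 0.05. The median changes were 0.05 and 0.07, beside 0.01 and 0.02 over all probe sets. As deposited they were 0.09 and 0.12, beside -0.03 and -0.01, and with median centring 0.14 and 0.17, beside 0.02 and 0.03, where the ISCH median was 0.15. With array weights they were 0.002 and 0.04, and the median of IPC minus CTL turned to -0.04 without IPC 5. Rpl39 illustrates the spread: it read 11.85, 11.87, 11.99, 12.02 and 12.26 in IPC and 11.72, 11.46, 11.05, 12.003 and 12.02 in APC, with changes from control of 0.58 ± 0.20 (SE), adjusted p = 0.121, and 0.23 ± 0.20 (SE), adjusted p = 0.801. Rps27l, a near relative of Rps27 known as a target of p53, stood 0.43 ± 0.19 and 0.35 ± 0.19 from control, and neither passed.

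Against the ischaemic group, no member passed in IPC minus ISCH in limma, where 0.172% of all probe sets passed (0.0763% higher and 0.0953% lower) and 9 members had an unadjusted p under 0.05. Without IPC 5, 1 member fell, and the share of all probe sets called in that fit is not given here. APC minus ISCH called 1 of 60 members (1.67%), lower, beside 0.267% of all probe sets (0.0191% higher and 0.248% lower). As a description, 58 of 60 and 51 of 60 changes lay below 0, with medians of -0.17 and -0.13 beside 0.02 and 0.02 over all probe sets; with median centring the medians were 0.01 and 0.03, beside 0.10 and 0.11 over all probe sets. Both comparisons use the same ISCH arrays as ISCH minus CTL, so they are no separate evidence of where that group lay. The member that fell was Rpl19l4, which read 9.50, 9.75, 9.29, 9.81 and 9.70 in APC, overlapping ISCH through ISCH 1. The change was -1.26 ± 0.28 (SE), adjusted p = 0.0427, and the call ended without any of 8 of the 10 arrays, all but ISCH 1 and ISCH 2 (adjusted p 0.0577 to 0.165), and with no filter, median centring, a fit to the groups compared alone, the spike covariate and the beta-actin covariate (changes of -1.52 to -1.11, adjusted p 0.0668 to 0.198). In IPC minus ISCH its change was -0.76 ± 0.28 (adjusted p = 0.271).

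After the triggers, members moved in both directions. IPC_TRI minus CTL called 7 of 60 members (11.7%), 5 higher and 2 lower, beside 16.6% of all probe sets, 6.46% higher and 10.1% lower. The count was 4 without CTL 1 and 11 without IPC_TRI 3 or IPC_TRI 4. APC_TRI minus CTL called 8 (13.3%), 5 higher and 3 lower, beside 8.64%, 3.72% higher and 4.92% lower, and 5 without CTL 5 or APC_TRI 2. In both comparisons, the share of all probe sets called in the fits without an array is not given here. The median changes were -0.10 and 0.03, beside -0.05 and -0.01 over all probe sets, and neither kept its sign. The first was -0.37 with median centring and 0.08 with the beta-actin covariate, and the second -0.06 with median centring, just below 0 as deposited and with array weights, and -0.04 without APC_TRI 5. Median centring moved the median of all probe sets in IPC_TRI minus CTL to -0.19. The members' split there was 2 higher and 11 lower, beside 3.22% of all probe sets higher and 14.4% lower. The members' median minus that of all probe sets was -0.18 with median centring, -0.18 as deposited and -0.04 as normalized here. Both comparisons share the CTL arrays, so the same gene called in both is not found independently.

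**Figure D3:**
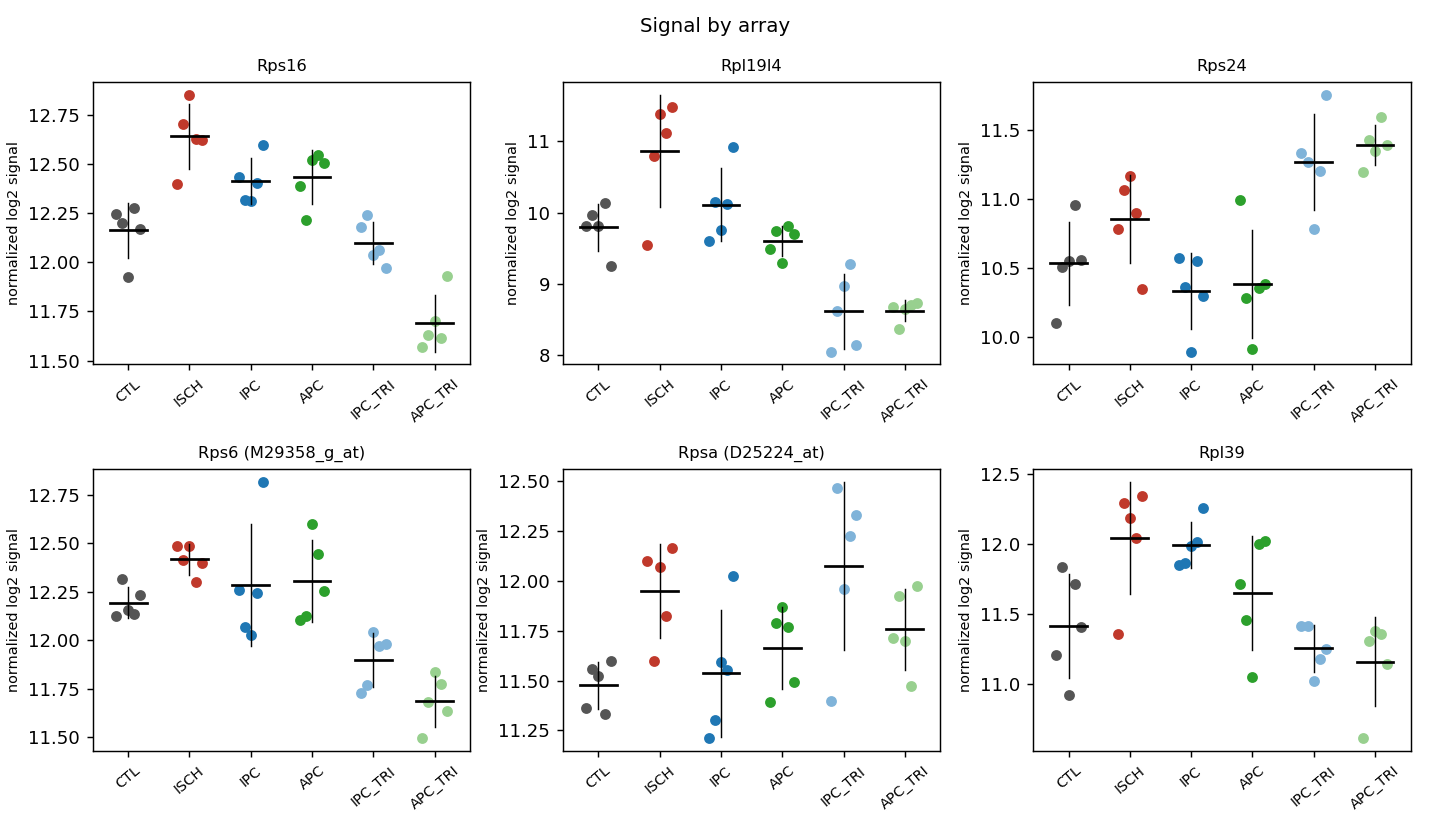
Normalized log2 signal (vertical axes) of 6 ribosomal protein probe sets in the 6 groups (horizontal axes). Points are the 5 arrays of a group, the bar is the mean and the line 1 SD either side. Rps24 is high and Rpl19l4 low in both trigger groups, and the APC_TRI arrays of Rps6 lie below every control.

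Of the small subunit, Rps24, needed for maturation of the small subunit's RNA, rose after both triggers. Its log2 signals were 10.11, 10.51, 10.55, 10.96 and 10.56 in CTL, 11.33, 11.26, 10.79, 11.20 and 11.75 in IPC_TRI and 11.19, 11.43, 11.35, 11.59 and 11.39 in APC_TRI. Only IPC_TRI 3 of the 10 trigger hearts lay within the control range. The changes were 0.73 ± 0.19 (SE), adjusted p = 0.00967, and 0.85 ± 0.19 (SE), adjusted p = 0.00495, or 1.66-fold and 1.81-fold. Both calls held when any 1 array was left out, and the first ended with median centring, a fit to the groups compared alone and array weights (changes of 0.41 to 0.72, adjusted p 0.0569 to 0.144).

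Rpsa rose after the ischaemic trigger in both its probe sets. D25224_at read 11.36, 11.56, 11.52, 11.33 and 11.60 in CTL and 11.40, 12.47, 11.96, 12.23 and 12.33 in IPC_TRI. IPC_TRI 1 lay within the control range and the other 4 above it. The changes were 0.60 ± 0.17 (SE), adjusted p = 0.0156, and, for D25224_g_at, 0.40 ± 0.12 (SE), adjusted p = 0.0267, the latter with each trigger heart above each control. The second call ended without CTL 1, CTL 4 or IPC_TRI 5 (adjusted p 0.0536 to 0.0802). D25224_at ended with median centring, a fit to the groups compared alone and the beta-actin covariate (changes of 0.33 to 0.60, adjusted p 0.0651 to 0.264), and D25224_g_at with median centring, a fit to the groups compared alone, the spike covariate and the beta-actin covariate (changes of 0.16 to 0.40, adjusted p 0.0625 to 0.469). After the anaesthetic trigger the changes were 0.28 ± 0.17 and 0.26 ± 0.12 and did not pass.

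Rps29, a small zinc-binding protein, rose in X59051cds_s_at after both triggers. It read 13.66, 14.12, 14.04, 14.17 and 14.08 in CTL, 14.58, 14.57, 14.45, 14.04 and 14.57 in IPC_TRI and 14.26, 14.50, 14.29, 14.38 and 14.57 in APC_TRI. IPC_TRI 4 lay within the control range, and each APC_TRI heart lay above each control. The changes were 0.43 ± 0.12 (SE), adjusted p = 0.0183, and 0.39 ± 0.12 (SE), adjusted p = 0.0471. The first ended without CTL 1 (adjusted p = 0.0682), which was the low control, and with a fit to the groups compared alone, array weights and the beta-actin covariate (changes of 0.33 to 0.49, adjusted p 0.0734 to 0.157). The second ended without any of 8 of the 10 arrays, all but APC_TRI 1 and APC_TRI 3 (adjusted p 0.0542 to 0.141), and with no filter, median centring, the spike covariate and the beta-actin covariate (changes of 0.35 to 0.53, adjusted p 0.0581 to 0.11). As deposited the changes were 0.79 and 0.59. The other probe set of Rps29, rc_AA965264_at, stood at -0.50 ± 0.19 and -0.10 ± 0.19 and did not pass.

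Rps6, the small-subunit protein that S6 kinases phosphorylate downstream of mTOR, fell after the anaesthetic trigger in M29358_g_at. That probe set read 12.12, 12.32, 12.16, 12.14 and 12.24 in CTL and 11.50, 11.68, 11.83, 11.78 and 11.64 in APC_TRI, with each trigger heart below each control. The change was -0.51 ± 0.13 (SE), adjusted p = 0.0107, or 0.703-fold of control. It held when any 1 array was left out and ended with the beta-actin covariate (-0.46, adjusted p = 0.0537). In M29358_at of the same gene the change was 0.02 ± 0.14. After the ischaemic trigger the changes were -0.30 ± 0.13 and -0.20 ± 0.14, and neither passed.

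Rps16, which had risen in ISCH, fell after the anaesthetic trigger. It read 11.57, 11.63, 11.70, 11.62 and 11.93 in APC_TRI, with APC_TRI 5 at the edge of the control range and the other 4 below it. The change was -0.47 ± 0.11 (SE), adjusted p = 0.00521, or 0.720-fold of control. It held when any 1 array was left out and ended with the beta-actin covariate (-0.33, adjusted p = 0.0723). After the ischaemic trigger it read 12.10 ± 0.11 (SD, n = 5) beside 12.16 ± 0.14 in CTL, and the change of -0.07 ± 0.11 did not pass.

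Of the large subunit, Rpl19l4 fell after both triggers. It read 8.06, 8.63, 8.97, 9.28 and 8.14 in IPC_TRI and 8.68, 8.37, 8.65, 8.70 and 8.74 in APC_TRI. Only IPC_TRI 4 reached the control range. The changes were -1.18 ± 0.28 (SE), adjusted p = 0.00544, and -1.17 ± 0.28 (SE), adjusted p = 0.00875, or 0.441-fold and 0.445-fold of control. Both held when any 1 array was left out and ended with the beta-actin difference as a covariate (adjusted p = 0.0613 and 0.0582).

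Rplp0, the base of the P stalk, rose after the anaesthetic trigger. It read 13.91, 13.63, 13.36, 13.87 and 13.71 in CTL and 14.17, 14.16, 14.17, 13.91 and 14.20 in APC_TRI, where only APC_TRI 4 did not exceed the highest control. The change was 0.43 ± 0.13 (SE), adjusted p = 0.0401, and the call ended without any of 7 of the 10 arrays, all but CTL 1, CTL 4 and APC_TRI 4 (adjusted p 0.0621 to 0.111), and with no filter (0.43, adjusted p = 0.0642) and median centring (0.54, adjusted p = 0.0857). After the ischaemic trigger it read 14.08, 14.09, 13.97, 13.98 and 13.25, where IPC_TRI 5 was low, and the change of 0.18 ± 0.13 did not pass.

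Rpl21 gave the largest changes against CTL among the members, and its 4 probe sets went different ways. rc_AA849648_at read 8.38, 8.53, 8.91, 8.61 and 8.56 in CTL, 9.55, 10.52, 9.60, 10.01 and 11.17 in IPC_TRI and 9.98, 10.34, 10.89, 10.50 and 10.21 in APC_TRI, with each trigger heart above each control. The changes were 1.57 ± 0.27 (SE), adjusted p = 0.000226, and 1.79 ± 0.27 (SE), adjusted p = 8.94e-05, or 2.98-fold and 3.46-fold, and both held under all 12 alternatives and with any 1 array left out. Its partner rc_AA849648_g_at rose by 0.88 ± 0.26 (SE), adjusted p = 0.0317, in APC_TRI, a call that ended without CTL 1, CTL 4, CTL 5, APC_TRI 2, APC_TRI 3 or APC_TRI 4 (adjusted p 0.0513 to 0.0973) and with the spike covariate (0.84, adjusted p = 0.0549) and the beta-actin covariate (0.87, adjusted p = 0.088), and stood at 0.64 ± 0.26 in IPC_TRI. M27905_at stood at 0.24 ± 0.15 and 0.01 ± 0.15 and did not pass.

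X15216cds_s_at of Rpl21 fell in IPC_TRI. It read 10.09, 10.17, 9.26, 10.01 and 9.42 in CTL and 9.47, 9.67, 8.96, 9.15 and 7.19 in IPC_TRI, with IPC_TRI 5 far below the rest. The change was -0.90 ± 0.30 (SE), adjusted p = 0.0366, and the call ended without CTL 1, CTL 2, CTL 4 or IPC_TRI 5 (adjusted p 0.0827 to 0.155) and with a fit to the groups compared alone, IPC_TRI 5 and ISCH 1 both left out, the spike covariate and the beta-actin covariate (changes of -0.89 to -0.28, adjusted p 0.0798 to 0.604). Without IPC_TRI 5 the change was -0.48. In APC_TRI it read 8.75, 9.22, 9.43, 8.96 and 9.32, and the change of -0.65 ± 0.30 did not pass.

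**Figure D4:**
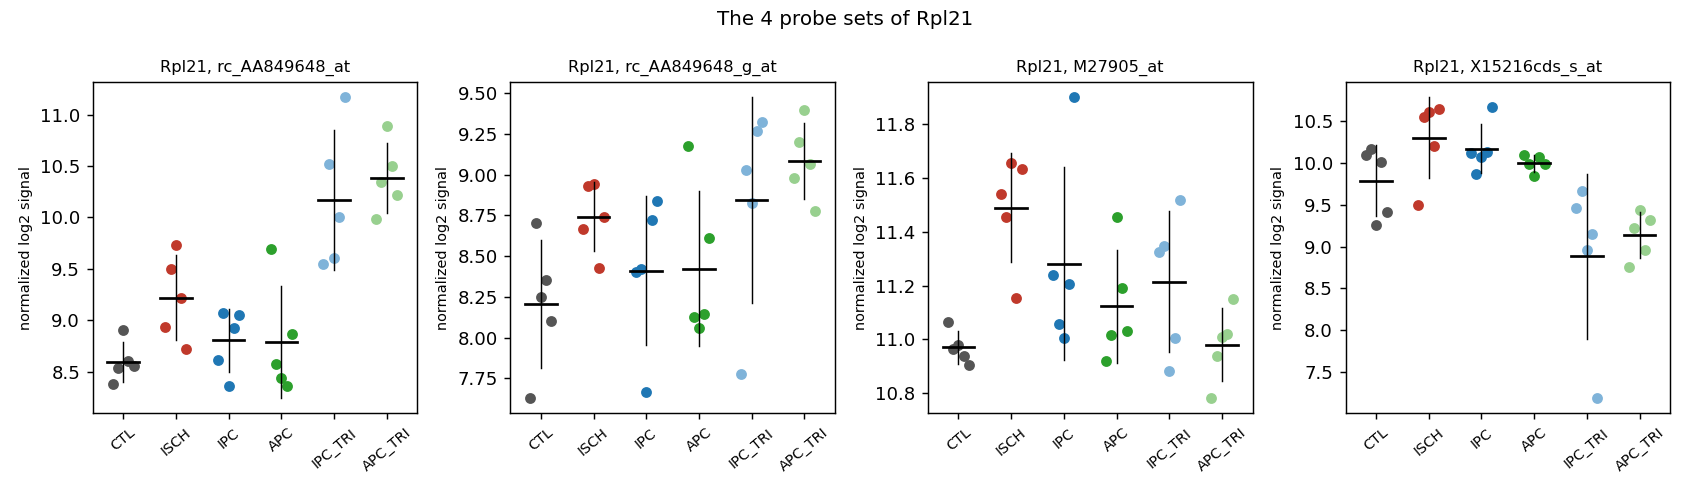
Normalized log2 signal (vertical axes, each probe set on its own scale) of the 4 probe sets of Rpl21 in the 6 groups (horizontal axes). Points are arrays, bars are means and lines 1 SD; rc_AA849648_at is high in both trigger groups, whereas X15216cds_s_at is low there.

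Of the 41 genes, 16 had several probe sets, and these could be set against each other within each array. In 23 pairs, the changes had opposite signs for 6 pairs in ISCH minus CTL and for 11 in each trigger comparison. The difference between the probe sets of a pair was compared with CTL by an exact two-sided permutation test over 5 against 5 arrays, a test added after the values had been seen, with 0.00794 as its smallest possible p. Of 69 tests, 15 passed at an adjusted p of 0.0365. For Rpl21 the change of rc_AA849648_at exceeded that of X15216cds_s_at by 2.48 in IPC_TRI and 2.44 in APC_TRI. The other genes with a pair that passed were Rpl3, Rpl11, Rpl35, Rpl3l, Rps6 and Rps29. Of the remaining genes, Rpl23 stood at 0.19 ± 0.13 and 0.13 ± 0.14 in ISCH, Rpl24 at 0.10 ± 0.24 and -0.01 ± 0.23, and Rps15 spread most in ISCH, from 0.28 ± 0.14 to 0.85 ± 0.45. For the 7 genes with a pair that passed, a change in 1 probe set is not a change of every transcript that the gene's probe sets read. Probe sets whose names end in _s_at, _g_at or _i_at can share oligonucleotides with another transcript or another probe set, and ribosomal protein genes have many processed copies, so which transcript they read is uncertain.

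The full protocols against their own triggers gave the most calls. IPC minus IPC_TRI called 17 of 60 members (28.3%), 11 higher and 6 lower, beside 23.4% of all probe sets, 14% higher and 9.46% lower. APC minus APC_TRI called 14 (23.3%), 9 higher and 5 lower, beside 17.7%, 9.82% higher and 7.88% lower, and 8 and 9 members without APC 4 and APC_TRI 1. For the fits without an array the share of all probe sets called is not given here. The members' medians were 0.08 and -0.01, beside 0.05 and 0.01 over all probe sets. With median centring the first split was 20 higher and 3 lower, beside 19.3% and 4.5% of all probe sets. The second was 11 and 3, beside 11.2% and 6.66%. The medians there were 0.41 and 0.14, beside 0.19 and 0.06. The first median was -0.02 with the beta-actin covariate, and the second changed sign in 9 of 23 settings, between -0.05 and 0.14. Genes higher in both full protocols were Rps16, Rpl4, Rpl19l4, Rpl26 and Rpl35a, with Rps6 in M29358_g_at and Rpl21 in X15216cds_s_at. Those lower in both were Rps24, with Rpl6 in rc_AA799672_s_at and Rpl21 in rc_AA849648_at. The comparisons have no arrays in common with each other, but each shares its trigger group with the comparison of that trigger with CTL, so their signs are not independent of it.

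Rps16 gave the smallest p here. It read 12.39, 12.21, 12.52, 12.55 and 12.50 in APC and 11.57, 11.63, 11.70, 11.62 and 11.93 in APC_TRI, with each APC heart above each APC_TRI heart. The change was 0.75 ± 0.11 (SE), adjusted p = 7.3e-06, or 1.68-fold, and it held under all alternatives and with any 1 array left out. In IPC minus IPC_TRI it was 0.31 ± 0.11 (SE), adjusted p = 0.0321, a call that ended without IPC 1, IPC 4, IPC 5, IPC_TRI 3, IPC_TRI 4 or IPC_TRI 5 (adjusted p 0.0501 to 0.0828) and with a fit to the groups compared alone, IPC_TRI 5 and ISCH 1 both left out, array weights and the beta-actin covariate (changes of 0.05 to 0.32, adjusted p 0.0533 to 0.865). With median centring that change was 0.66.

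Rps24 went the other way. It read 10.58, 10.36, 9.90, 10.55 and 10.30 in IPC and 10.99, 10.28, 9.91, 10.35 and 10.39 in APC, each heart below each heart of its trigger group. The changes were -0.93 ± 0.19 (SE), adjusted p = 0.000763, and -1.003 ± 0.19 (SE), adjusted p = 0.000322, and both held under all alternatives and with any 1 array left out, the first at -0.58 with median centring. Rps6 in M29358_g_at rose by 0.62 ± 0.13 (SE), adjusted p = 0.000723, in APC minus APC_TRI, which held likewise, and by 0.39 ± 0.13 (SE), adjusted p = 0.0253, in IPC minus IPC_TRI, which ended without IPC 5, IPC_TRI 1 or IPC_TRI 2 (adjusted p 0.0518 to 0.106) and with a fit to the groups compared alone, array weights and the beta-actin covariate (changes of 0.27 to 0.39, adjusted p 0.152 to 0.34). Its M29358_at rose by 0.44 ± 0.14 (SE), adjusted p = 0.0212, in IPC minus IPC_TRI, which ended without IPC 2, IPC 5 or IPC_TRI 1 (adjusted p 0.0505 to 0.083) and with a fit to the groups compared alone, array weights and the beta-actin covariate (changes of 0.35 to 0.43, adjusted p 0.11 to 0.31). M29358_at did not pass in APC minus APC_TRI. With median centring these changes in IPC minus IPC_TRI were 0.77 and 0.75.

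On the large subunit, Rpl26, which stands at the exit of the tunnel, rose in both its probe sets and both comparisons. Its rc_AA893493_i_at read 11.98, 12.13, 12.30, 12.34 and 12.15 in APC and 10.83, 11.75, 11.58, 11.68 and 11.79 in APC_TRI, with no overlap. The change there was 0.65 ± 0.17 (SE), adjusted p = 0.00565, and the remaining 3 changes of Rpl26 lay between 0.52 and 0.53. Of those, the call of the same probe set in IPC minus IPC_TRI ended without IPC 5 or IPC_TRI 1 (adjusted p 0.0679 to 0.0759) and with a fit to the groups compared alone, array weights and the beta-actin covariate (changes of 0.41 to 0.52, adjusted p 0.0591 to 0.336). The calls of X14671cds_s_at ended with a fit to the groups compared alone (0.53, adjusted p = 0.0545) and the beta-actin covariate (0.15, adjusted p = 0.72) in IPC minus IPC_TRI, and without APC 4 or APC_TRI 1 (adjusted p 0.06 to 0.0685) and with the beta-actin covariate (0.33, adjusted p = 0.187) in APC minus APC_TRI. With median centring the changes in IPC minus IPC_TRI were 0.89 and 0.88. Rpl4, whose long loop forms part of the tunnel, was higher by 0.90 ± 0.22 (SE), adjusted p = 0.00398, and 0.70 ± 0.22 (SE), adjusted p = 0.0253, the first call ending with the beta-actin covariate (0.18, adjusted p = 0.727) and the second without APC 4 or APC_TRI 1 (adjusted p 0.0676 to 0.079) and with the beta-actin covariate (0.35, adjusted p = 0.277). Rpl13a, known also for a role outside the ribosome in silencing inflammatory messages, rose in APC minus APC_TRI in rc_AI012805_at by 0.70 ± 0.15 (SE), adjusted p = 0.00164, and held under all alternatives. Its other probe set, rc_AA891713_at, ran from 10.39 to 10.82 in APC and from 10.54 to 10.67 in APC_TRI and did not pass.

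Rpl35a, with a TOP tract at its start, rose by 0.99 ± 0.29 (SE), adjusted p = 0.0135, and 0.83 ± 0.29 (SE), adjusted p = 0.0443. It read 8.24, 9.52, 10.07, 10.14 and 9.63 in IPC_TRI, where IPC_TRI 1 was low, and the first call ended without IPC_TRI 1 (adjusted p = 0.0603) and with a fit to the groups compared alone, array weights and the beta-actin covariate (changes of 0.74 to 0.99, adjusted p 0.0578 to 0.252). The second ended without APC 1, APC 3, APC 4, APC 5, APC_TRI 1, APC_TRI 2, APC_TRI 3 or APC_TRI 4 (adjusted p 0.0541 to 0.118) and with no filter, the spike covariate and the beta-actin covariate (changes of 0.75 to 0.83, adjusted p 0.0641 to 0.137). X15216cds_s_at of Rpl21 rose by 1.28 ± 0.30 (SE), adjusted p = 0.00266, and 0.86 ± 0.30 (SE), adjusted p = 0.0453. Its first call ended with a fit to the groups compared alone (1.27, adjusted p = 0.0511) and the beta-actin covariate (0.36, adjusted p = 0.6), and its second without any of 9 of the 10 arrays, all but APC_TRI 3 (adjusted p 0.0564 to 0.106) and with pseudocount 1, no filter, replicate block, the spike covariate and the beta-actin covariate (changes of 0.40 to 0.88, adjusted p 0.0512 to 0.381).

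Rpl39 rose by 0.74 ± 0.20 (SE), adjusted p = 0.00722, in IPC minus IPC_TRI, with no overlap, and the call ended with the beta-actin covariate (0.57, adjusted p = 0.24). Rpl19l4 rose by 1.495 ± 0.28 (SE), adjusted p = 0.000284, and 0.98 ± 0.28 (SE), adjusted p = 0.0142, and the first call ended with the beta-actin covariate (1.20, adjusted p = 0.0665), the second likewise (0.83, adjusted p = 0.077). Rps27l rose in IPC minus IPC_TRI by 0.60 ± 0.19 (SE), adjusted p = 0.0208, a call that ended without IPC 1 or IPC 5 (adjusted p 0.052 to 0.0724) and with a fit to the groups compared alone (0.59, adjusted p = 0.1) and the beta-actin covariate (0.33, adjusted p = 0.491).

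Rpl6, a large-subunit protein, was lower in both full protocols in rc_AA799672_s_at, with changes of -0.60 ± 0.17 (SE), adjusted p = 0.0107, and -0.49 ± 0.17 (SE), adjusted p = 0.0441. The first call ended with median centring, a fit to the groups compared alone and the beta-actin covariate (changes of -0.61 to -0.29, adjusted p 0.0536 to 0.337). The second ended with no filter, the deposited scale, median centring, the spike covariate and the beta-actin covariate (changes of -0.49 to -0.36, adjusted p 0.0547 to 0.181), and without any of 8 of the 10 arrays, all but APC 3 and APC_TRI 3 (adjusted p 0.0535 to 0.122). Its other probe set, S71021_s_at, stood at -0.15 ± 0.22 and -0.16 ± 0.22. In IPC minus IPC_TRI, Rpsa fell in both probe sets (-0.54 ± 0.17 and -0.46 ± 0.12) and Rps29 in X59051cds_s_at (-0.55 ± 0.12). The other probe set of Rps29, rc_AA965264_at, lay on the higher side there and did not pass. IPC_TRI 1 and IPC_TRI 2 were its low arrays, at 13.23 and 13.48. The call of D25224_at ended without IPC 1, IPC 2, IPC_TRI 2 or IPC_TRI 5 (adjusted p 0.0585 to 0.0685) and with the deposited scale, median centring, a fit to the groups compared alone, IPC_TRI 5 and ISCH 1 both left out and the beta-actin covariate (changes of -0.55 to -0.20, adjusted p 0.0578 to 0.529), of D25224_g_at with median centring, a fit to the groups compared alone and the beta-actin covariate (changes of -0.47 to -0.11, adjusted p 0.0689 to 0.616) and of Rps29 with the beta-actin covariate (-0.55, adjusted p = 0.0626). In APC minus APC_TRI, the change of Rplp0 was -0.44 ± 0.13 (SE), adjusted p = 0.021, with no overlap, a call that ended without APC 3 (adjusted p = 0.061) and with median centring (-0.37, adjusted p = 0.205). Rpl5, which carries the smallest ribosomal RNA and binds Mdm2, also fell, by a change of -0.71 ± 0.24 (SE), adjusted p = 0.0363, a call that ended without APC 1, APC 3, APC 4, APC 5, APC_TRI 3 or APC_TRI 4 (adjusted p 0.0577 to 0.0853) and with no filter, the spike covariate and the beta-actin covariate (changes of -0.71 to -0.51, adjusted p 0.0586 to 0.208).

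The beta-actin difference moved with the triggers, at -0.46 ± 0.37 in IPC_TRI and -0.36 ± 0.28 in APC_TRI against 0.34 ± 0.26 in IPC and 0.04 ± 0.27 in APC (SD, n = 5 each). The same difference for Gapdh went the other way, at 0.13 ± 0.10 in IPC_TRI and 0.19 ± 0.14 in APC_TRI against -0.06 ± 0.11 in CTL, with each trigger array above each control; it was not run as a covariate. With the beta-actin difference as a covariate the calls went from 17 to 4 in IPC minus IPC_TRI and from 14 to 8 in APC minus APC_TRI, and from 7 to 4 and from 8 to 3 for IPC_TRI and APC_TRI minus CTL. Because this covariate moved with the groups compared, the fit cannot tell a smaller change from a wider SE by the calls alone. Rpl21 in rc_AA849648_at and Rps24 kept their calls with that covariate in each of these comparisons. The share of all probe sets called with that covariate is not given here. Fibroblast summed signal ran from 15.64 to 16.06 in IPC_TRI and 15.74 to 15.97 in APC_TRI, where 1 of 9 markers rose in each. Smooth muscle and pericyte summed signal ran from 13.88 to 14.33 and from 13.84 to 14.40, against 13.67 to 14.09 in CTL, where 0 of 6 markers passed in limma. Of the cardiomyocyte markers, 3 fell in IPC_TRI and 1 in APC_TRI, and their part in the members' changes was not tested.

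Whether the step from trigger to full protocol differed from the step from CTL to ISCH was tested as a difference of differences, taking the full protocols as the trigger followed by ischaemia, which the labels do not spell out. For the ischaemic kind 8 of 60 members passed (13.3%), all 8 lower, beside 13.6% of all probe sets, 8.45% higher and 5.17% lower. For the anaesthetic kind 5 passed (8.33%), all 5 lower, beside 8.22%, 4.81% higher and 3.41% lower. With median centring the split for the ischaemic kind was 4 higher and 3 lower, beside 14.9% and 2.46% of all probe sets. For the anaesthetic kind it was 0 and 3, beside 7.21% and 2.38%. The members' medians were -0.15 and -0.10, beside 0.07 and 0.04 over all probe sets, but 0.29 and 0.11, beside 0.29 and 0.15, with median centring.

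The largest such difference was in Rpl21 (rc_AA849648_at), at -1.99 ± 0.38 (SE), adjusted p = 0.00103, and -2.22 ± 0.38 (SE), adjusted p = 0.000817. It was 0.63 ± 0.27 higher in ISCH than in CTL, but -1.37 ± 0.27 and -1.60 ± 0.27 in the full protocols against their triggers. X15216cds_s_at of the same gene lay on the higher side for both kinds and did not pass. For the ischaemic kind its difference of 0.77 was the highest among the members. Rps24 gave -1.25 ± 0.27 (SE), adjusted p = 0.00329, and -1.32 ± 0.27 (SE), adjusted p = 0.00286, the first at -0.73 with median centring. Rpl3 in rc_AA892367_i_at gave -0.83 ± 0.23 (SE), adjusted p = 0.0182, and -0.85 ± 0.23 (SE), adjusted p = 0.0224, and these calls ended with median centring (-0.33, adjusted p = 0.396) and the spike covariate (-0.74, adjusted p = 0.202), and with median centring (-0.53, adjusted p = 0.19) and the spike covariate (-0.76, adjusted p = 0.205). X62166cds_s_at of Rpl3 lay on the lower side for both kinds and did not pass.

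For the ischaemic kind the others were Rpsa (D25224_at, -1.02 ± 0.24 (SE), adjusted p = 0.00621, and D25224_g_at, -0.61 ± 0.18 (SE), adjusted p = 0.0209), Rps29 (X59051cds_s_at, -0.67 ± 0.18 (SE), adjusted p = 0.0126), Rpl35 (M34331_g_at, -0.68 ± 0.21) and Rpl27 (rc_AI176589_g_at, -0.64 ± 0.20). For the anaesthetic kind they were Rpl17 (-1.33 ± 0.35 (SE), adjusted p = 0.0165) and rc_AA849648_g_at of Rpl21 (-1.19 ± 0.37 (SE), adjusted p = 0.04). For Rpsa the calls ended with median centring (-0.54, adjusted p = 0.2) and the spike covariate (-0.78, adjusted p = 0.174), and with median centring, a fit to the groups compared alone, IPC_TRI 5 and ISCH 1 both left out, the spike covariate and the beta-actin covariate (changes of -0.61 to -0.18, adjusted p 0.0606 to 0.584). The change of Rps29 was -1.19 as deposited. Its other probe set, rc_AA965264_at, lay on the higher side and did not pass. Of the other probe sets of Rpl35 and Rpl27, M34331_at lay on the higher and rc_AI176589_at on the lower side, and neither passed. Rpl35 and Rpl27 lost their calls without single arrays: Rpl35 without ISCH 3, IPC 2, IPC 4 or IPC_TRI 5 (adjusted p 0.0547 to 0.0568), and Rpl27 without ISCH 1, ISCH 3, IPC 1, IPC 2, IPC_TRI 2 or IPC_TRI 5 (adjusted p 0.055 to 0.061). They also ended with the deposited scale, median centring, a fit to the groups compared alone, IPC_TRI 5 and ISCH 1 both left out, the spike covariate and the beta-actin covariate (changes of -0.69 to -0.20, adjusted p 0.0558 to 0.586) for Rpl35, and with the deposited scale, median centring, a fit to the groups compared alone, IPC_TRI 5 and ISCH 1 both left out, array weights, the spike covariate and the beta-actin covariate (changes of -0.64 to -0.19, adjusted p 0.0525 to 0.594) for Rpl27. The call of rc_AA849648_g_at ended without any of 15 of the 20 arrays, and with no filter, median centring and the spike covariate (changes of -1.19 to -1.01, adjusted p 0.0536 to 0.288). With the spike signal as a covariate 0 members passed for the ischaemic kind and 1 for the anaesthetic, which was Rpl21 in rc_AA849648_at. The share of all probe sets called with that covariate is not given here.

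No member passed between the kinds of preconditioning. IPC minus APC called 0 of 60 members in limma, beside 0% of all probe sets and 0 members at an unadjusted p under 0.05. IPC_TRI minus APC_TRI called 0 of 60, beside 0.439% of all probe sets, with 8 members at an unadjusted p under 0.05, and 1 member passed without IPC_TRI 5 or APC_TRI 5. For those fits the share of all probe sets called is not given here. The members' changes in IPC minus APC and in IPC_TRI minus APC_TRI ran from -0.47 to 0.50 and from -0.75 to 0.41. Rpl17 stood at the lower end of the second, at -0.75 ± 0.24 (adjusted p = 0.134). In the F test of any difference among the 6 groups, 24 of 60 members passed (40%), beside 31.6% of all probe sets. Rps3, whose protein is also known as a DNA repair enzyme, and Rpl36, of the large subunit, passed in the F test alone, in X51536cds_at (adjusted p = 0.0132) and rc_AA892123_at (adjusted p = 0.04). Rps3 stood at 0.18 ± 0.11 in ISCH and -0.25 ± 0.11 in IPC_TRI, and Rpl36 at 0.25 ± 0.16 and -0.32 ± 0.16.

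Of the 60 probe sets, 31 passed neither in the 13 comparisons nor in the F test, and 18 of the 41 genes had no probe set that passed. Their changes against CTL lay between -0.64 and 0.85. Rps10, of the small subunit, stayed nearest to CTL of the 60, with changes from -0.10 ± 0.15 in APC to 0.05 ± 0.15 in IPC_TRI. Rps9 had the lowest of these values, -0.64 ± 0.27 in IPC_TRI, where it read 12.69, 12.42, 12.65, 12.57 and 10.24, so that IPC_TRI 5 alone lay low. Rpl19, at -0.56 ± 0.27 there, read 12.34, 10.29, 12.92, 12.39 and 12.47, with IPC_TRI 2 alone low. Rpl41, the smallest ribosomal protein, stood at 0.37 ± 0.20 in IPC_TRI. Rps9, Rps10, Rpl19, Rpl30 and Rpl41 were named after their values had been seen.

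**Figure D5:**
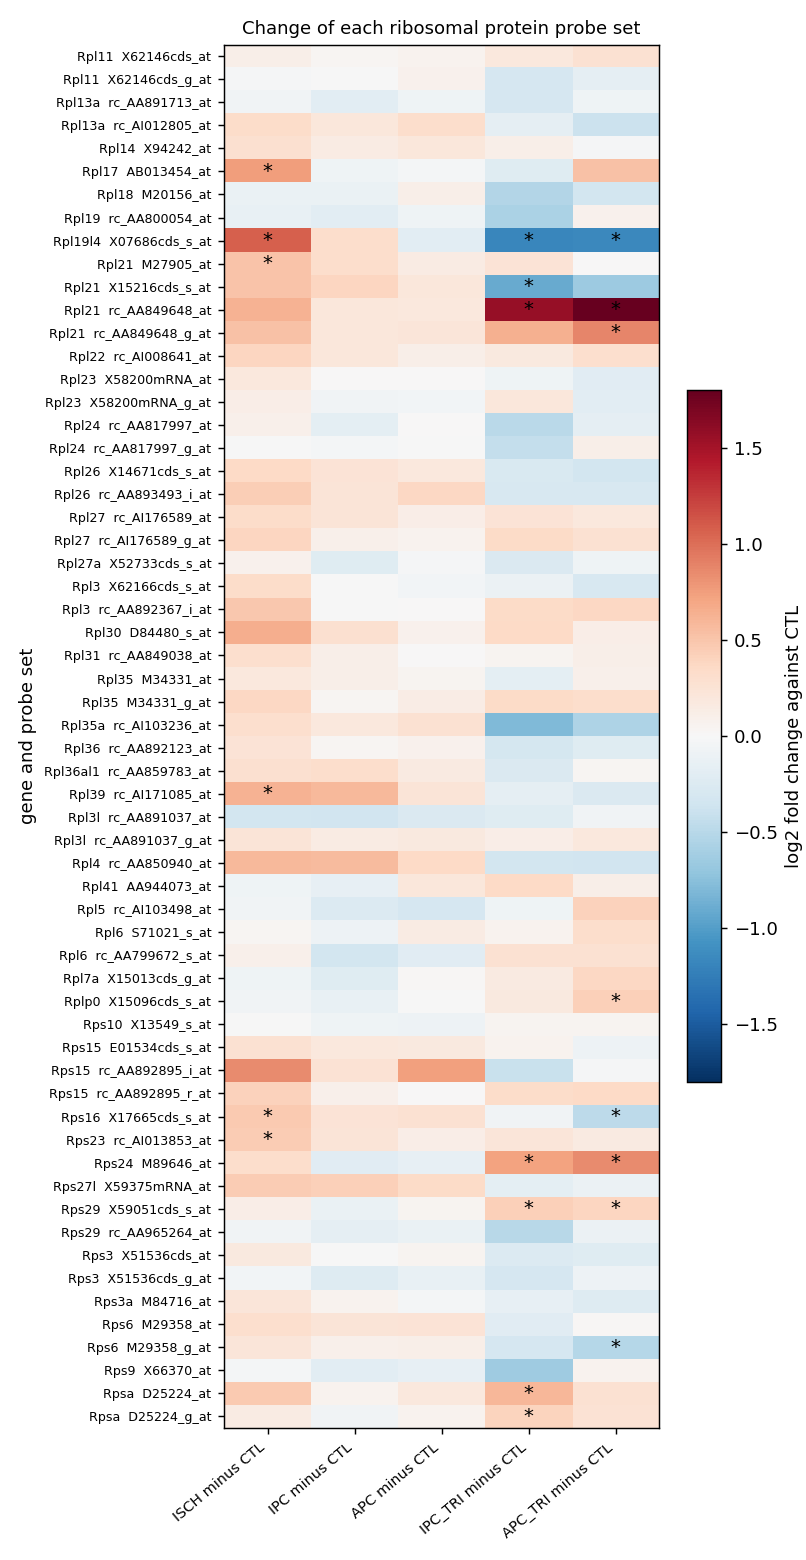
Log2 fold change against CTL (colour scale from -1.8 to 1.8; red higher, blue lower) of each of the 60 ribosomal protein probe sets (rows, gene and probe set) in the 5 other groups (columns). A star marks a change that passed the test: 6 in ISCH, 0 in IPC, 0 in APC, 7 in IPC_TRI and 8 in APC_TRI.

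Rpl3l, the relative of Rpl3 that striated muscle uses in place of it, had probe sets that differed. Its rc_AA891037_at read 11.32, 11.07, 11.02, 10.82 and 10.93 in CTL and 11.04, 10.60, 10.45, 10.62 and 10.77 in ISCH, a change of -0.34 ± 0.14 (SE), adjusted p = 0.154. Its rc_AA891037_g_at read 11.03, 10.90, 11.17, 10.84 and 10.78 in CTL and 11.34, 11.25, 11.36, 10.86 and 11.10 in ISCH, a change of 0.24 ± 0.14 (SE), adjusted p = 0.35. Neither passed, and the pair differed by -0.57 (exact two-sided permutation test, adjusted p = 0.0365 over 69 tests). Rpl3 stood at 0.48 ± 0.17 and, in X62166cds_s_at, 0.33 ± 0.17. Rpl36al1, a further gene named for its likeness to another, stood at 0.29 ± 0.27 and did not pass.

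By start site, 14 probe sets belonged to the 11 genes with a TOP tract at the annotated start. Their median change in ISCH minus CTL was 0.30, with 2 called higher. The 40 probe sets of the 26 genes without the tract there had a median of 0.21, with 3 called higher. The 6 probe sets of the 4 genes with no promoter entry had a median of 0.35, with 1 called higher. Of all probe sets, 3.95% were called higher. In IPC_TRI minus CTL the medians were -0.04 with the tract, -0.14 without it and 0.30 with no entry. In APC_TRI minus CTL they were 0.08, -0.02 and 0.15. These are descriptions of lists that overlap in range. The highest change in APC_TRI minus CTL was 0.53 with the tract and 1.79 without it.

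In the other gene lists of protein synthesis the counts below stand beside 8.77% of all probe sets called in ISCH minus CTL and 16.6% in IPC_TRI minus CTL. Of 5 elongation factor genes, 1 rose in ISCH, Eef1a1, which brings transfer RNA to the ribosome (0.55 ± 0.16, adjusted p = 0.0236), and 0 changed after the ischaemic trigger. Of 17 initiation factors and their regulators, 1 fell in ISCH, Eif2ak2, the kinase that halts initiation on double-stranded RNA (-2.34 ± 0.32, adjusted p = 3.9e-06). In IPC_TRI minus CTL, 4 of the 17 rose and 1 fell: Eif2ak2 fell (-1.35 ± 0.32), and those that rose included Eif2b2 (0.54 ± 0.14), Eif3b (0.58 ± 0.18) and Eif2b4 (0.51 ± 0.16). Eif2ak2 also fell in IPC and APC (-1.56 ± 0.32 and -2.21 ± 0.32), the elongation factor Eef2 fell in IPC (-0.72 ± 0.21), and Eif2b2 rose in APC_TRI (0.59 ± 0.14). Of 9 genes of mTOR signalling and the S6 kinases, 0 changed in ISCH and 3 fell in IPC_TRI, namely Mtor (-0.67 ± 0.23), Akt2 (-0.85 ± 0.28) and Pdpk1 (-1.28 ± 0.34), beside 2 that fell in APC_TRI, Mtor (-0.75 ± 0.23) and Rictor (-0.80 ± 0.23). Eef2 and Rictor were named after their values had been seen.

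Of 11 ribosome biogenesis genes tested, 0 changed in ISCH and 2 fell in IPC_TRI, Ncl, the nucleolar protein nucleolin (-0.78 ± 0.19), and Ubtf, a factor for transcription of ribosomal RNA (-1.11 ± 0.34). Of 14 mitochondrial ribosomal protein genes, 1 fell in ISCH, Mrpl3 (-0.63 ± 0.17), and 3 fell in IPC_TRI, Mrpl3 (-0.85 ± 0.17), Mrpl52 (-1.59 ± 0.39) and Mrps14 (-0.70 ± 0.21). Their medians were -0.09 in ISCH and -0.03 in IPC_TRI. Of 6 other genes with TOP messages, Gas5 fell in ISCH and IPC_TRI (-0.67 ± 0.16 and -0.47 ± 0.16) and Nap1l1 in IPC_TRI (-0.71 ± 0.25). Of 4 genes of signal recognition and the nascent chain, Sec61b rose in ISCH (0.73 ± 0.16) and Ssr3 fell in IPC_TRI (-0.78 ± 0.26). These lists were drawn up with earlier results of the data known.

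The 38 tested probe sets with a ribosomal protein symbol among several symbols had a median change of 0.19 in ISCH minus CTL. There 0 of them passed in limma, beside 8.77% of all probe sets. Of the 38, 2 rose and 3 fell in IPC_TRI minus CTL, beside 6.46% and 10.1%. In APC_TRI minus CTL, 0 rose and 4 fell, beside 3.72% and 4.92%. In IPC minus IPC_TRI, 8 rose and 2 fell, beside 14% and 9.46%. In APC minus APC_TRI, 5 rose and 0 fell, beside 9.82% and 7.88%. For the ischaemic difference of differences 3 were higher and 1 lower, beside 8.45% and 5.17%. For the anaesthetic they were 2 and 0, beside 4.81% and 3.41%. Under the reading of the rule by the letter, APC_TRI minus CTL called 4 of 46 members, 3 higher and 1 lower. Of all probe sets 8.64% were called there, 3.72% higher and 4.92% lower. Of all 66 single calls over the 13 comparisons, 12 held under every alternative and with any 1 array left out, and 0 of the 6 in ISCH minus CTL were among them. Those alternatives include the spike and beta-actin covariates, which themselves differed between some of the groups.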

How the data were processed

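Total RNA of 30 left ventricles, 5 per group, was measured on 1 Affymetrix rat array each, and p-values measure the spread between these arrays. The deposited values are linear intensities, 1 per probe set, whose equal trimmed means (lowest and highest 2% left out) show that they had been scaled; the software is not given in the sources used here, and the labels name no batch. From them log2(intensity + 16) was computed, 59 control probe sets were left out, arrays were brought to equal quantiles, and the dimmest 40%, ranked by mean signal, were dropped. R 4.3.3 and limma 3.58.1 (lmFit, eBayes with a trend) fitted 6 group means over the remaining 5244 probe sets, with 13 contrasts and an F test, and Benjamini-Hochberg adjustment within each. Scripts were tested on simulated data. Python 3.11.15 read the sequences and drew the plots.

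Members and gene lists were chosen with earlier results of these data known. All 41 member genes matched RefSeq, 40 by gene identifier and 1 by symbol, whose build GRCr8 gives the coordinates printed. Named members were up to 30 probe sets that passed any test, taken by F-test p, plus genes with several probe sets and like-named genes; of each other list, at most 4 genes that passed in ISCH minus CTL or IPC_TRI minus CTL, by smallest p. Alternatives were pseudocounts of 1 and 64, no filter or 60% dropped, values as deposited, median centring, array weights, a fit to the groups of a contrast alone, a replicate block, the spike signal or the beta-actin 3′ minus 5′ difference as a covariate, IPC_TRI 5 and ISCH 1 both left out, each array left out, the mean over a gene's probe sets, and, added after seeing the data, the other reading of the membership rule.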

Additional observations from a re-analysis of the deposited data

Results flagged for a closer look

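In 34 of 360 groups of 5 arrays (9.44%), 1 array's log2 signal lay far from the other 4 by Dixon's criterion, where chance gives about 1 in 20. APC_TRI 1 and CTL 3 stood apart in 4 members each, and no other array in more than 3. Each value is given with the range of the other 4 arrays of its group. In CTL these were Rpl17 (AB013454_at) at 8.62 in CTL 1 (8.97 to 9.1), Rpl30 (D84480_s_at) at 5.26 in CTL 3 (7.61 to 8.13) and Rpl35 (M34331_at) at 11.43 in CTL 2 (11.07 to 11.16). Then came Rpl36al1 (rc_AA859783_at) at 9.18 in CTL 3 (10.31 to 10.68), Rpl36 (rc_AA892123_at) at 10.98 in CTL 3 (11.3 to 11.39) and Rpl22 (rc_AI008641_at) at 11.45 in CTL 3 (12.76 to 13.09). Also apart were Rpl27a (X52733cds_s_at) at 12.37 in CTL 1 (12.81 to 12.96) and Rps29 (X59051cds_s_at) at 13.66 in CTL 1 (14.04 to 14.17). In ISCH these were Rps6 (M29358_at) at 11.39 in ISCH 5 (10.82 to 10.91), Rpl24 (rc_AA817997_g_at) at 12.45 in ISCH 1 (13.08 to 13.33) and Rpl36 (rc_AA892123_at) at 11.01 in ISCH 4 (11.59 to 11.69). Then came Rpl13a (rc_AI012805_at) at 10.83 in ISCH 1 (11.47 to 11.71). In IPC these were Rpl21 (M27905_at) at 11.9 in IPC 5 (11.01 to 11.24). In APC these were Rpl4 (rc_AA850940_at) at 10.96 in APC 4 (10.44 to 10.59), Rpl3l (rc_AA891037_at) at 10.65 in APC 3 (10.77 to 10.82) and Rpl36 (rc_AA892123_at) at 11.56 in APC 4 (11.27 to 11.33). Then came Rpl6 (S71021_s_at) at 12.34 in APC 4 (11.6 to 11.79). In IPC_TRI these were Rpl18 (M20156_at) at 9.62 in IPC_TRI 1 (10.76 to 11.15), Rps6 (M29358_at) at 9.94 in IPC_TRI 1 (10.55 to 10.65) and Rpl35 (M34331_at) at 10.57 in IPC_TRI 1 (11.02 to 11.15). Then came Rpl19 (rc_AA800054_at) at 10.29 in IPC_TRI 2 (12.34 to 12.92), Rps23 (rc_AI013853_at) at 12.45 in IPC_TRI 2 (11.77 to 11.95) and Rplp0 (X15096cds_s_at) at 13.25 in IPC_TRI 5 (13.97 to 14.09). Also apart were Rpl21 (X15216cds_s_at) at 7.19 in IPC_TRI 5 (8.96 to 9.67), Rps29 (X59051cds_s_at) at 14.04 in IPC_TRI 4 (14.45 to 14.58) and Rps9 (X66370_at) at 10.24 in IPC_TRI 5 (12.42 to 12.69). In APC_TRI these were Rpl41 (AA944073_at) at 10.69 in APC_TRI 5 (9.47 to 9.79), Rpl18 (M20156_at) at 10.32 in APC_TRI 1 (10.93 to 11.05) and Rpl6 (rc_AA799672_s_at) at 12.29 in APC_TRI 3 (12.86 to 12.95). Then came Rpl4 (rc_AA850940_at) at 9.61 in APC_TRI 1 (9.94 to 10.02), Rpl26 (rc_AA893493_i_at) at 10.83 in APC_TRI 1 (11.58 to 11.79) and Rpl19l4 (X07686cds_s_at) at 8.37 in APC_TRI 2 (8.65 to 8.74). Also apart were Rplp0 (X15096cds_s_at) at 13.91 in APC_TRI 4 (14.16 to 14.2) and Rpl27a (X52733cds_s_at) at 12.12 in APC_TRI 1 (12.77 to 12.88).

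In 13 cases the change from trigger to full protocol differed from that from CTL to ISCH, by limma's test of the difference. Against the ischaemic trigger these differences were -1.99 for Rpl21 (rc_AA849648_at), -1.25 for Rps24, -1.02 and -0.61 for Rpsa, -0.83 for Rpl3 (rc_AA892367_i_at), -0.68 for Rpl35 (M34331_g_at), -0.67 for Rps29 (X59051cds_s_at) and -0.64 for Rpl27 (rc_AI176589_g_at). Against the anaesthetic trigger they were -2.22 and -1.19 for Rpl21 (rc_AA849648_at and rc_AA849648_g_at), -1.33 for Rpl17, -1.32 for Rps24 and -0.85 for Rpl3 (rc_AA892367_i_at). With the spike signal as a covariate 0 members passed against the ischaemic and 1 against the anaesthetic trigger, and the share over all probe sets is not given here.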

How the results depend on the processing

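Numbers in this section are counts of members called, of 60 or, with the other reading of the rule, of 46. The share of all probe sets called also moves with the setting and is not given beside them. No count here is therefore read as a result about the members. In ISCH minus CTL (6) they were 3 with no filter, 1 with median centring, 10 without IPC_TRI 5 and ISCH 1, 21 with array weights, and 2 with either the spike or the beta-actin covariate. In IPC_TRI minus CTL (7) they were 13 with median centring, 2 in a fit to those groups alone and 4 with beta-actin; in APC_TRI minus CTL (8) 13 with weights, 3 with beta-actin and 4 with the other reading of the rule. In IPC minus IPC_TRI (17) they were 6 in the fit to those groups and 4 with beta-actin, and in APC minus APC_TRI (14) 8 with beta-actin. IPC minus CTL had 1 with weights, IPC minus ISCH 1 without both arrays and 6 with weights, APC minus ISCH 4 with weights and 0 with no filter, median centring, the groups alone, spike or beta-actin, and IPC_TRI minus APC_TRI 1 without both arrays and 1 with beta-actin. The ischaemic difference of differences (8) had 5 with those groups alone and 0 with spike; the anaesthetic (5) had 3 with median centring, 9 with those groups alone, 10 with weights and 1 with spike. The F test (24) had 9 with beta-actin.

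Leaving out 1 array at a time gave 1 to 9 in ISCH minus CTL, 0 to 0 in IPC minus CTL, APC minus CTL and IPC minus APC, 4 to 11 in IPC_TRI minus CTL, 5 to 7 in APC_TRI minus CTL, 0 to 1 in IPC minus ISCH, APC minus ISCH and IPC_TRI minus APC_TRI, 14 to 18 in IPC minus IPC_TRI, 8 to 13 in APC minus APC_TRI, 6 to 10 and 4 to 6 in the ischaemic and anaesthetic differences of differences, and 21 to 27 in the F test. Of 66 single calls, 0 reversed, and 12 held throughout; the causes of the others were not tested.

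With the replicate number as a block, 5 members passed in ISCH minus CTL, 9 in IPC_TRI minus CTL, 8 in APC_TRI minus CTL, 19 in IPC minus IPC_TRI, 13 in APC minus APC_TRI, 1 in APC minus ISCH, 8 and 5 in the differences of differences and 22 in the F test. Same-numbered arrays correlated by 0.0116 on average over 75 pairs, others by -0.00198 over 300, and 10 of 30 arrays correlated best with their own number, so the numbers were not taken as pairs. The 5 arrays a group limit the precision, and signal over background was not given.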
